A study of Oryza sativa with 36 samples.

Results

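A set of 173 probe sets, of 57194 on the Affymetrix Rice Genome Array, had higher signal in shoots of rice seedlings collected at the 24 h time point than at the 6 h time point in each of 4 series without the brown planthopper (BPH): natural growth and needle puncturing, each in RH (resistant to BPH) and in TN1 (susceptible). A probe set is a group of probes for 1 transcript or for several similar ones, and its signal was the intensity that the authors deposited for each array. Probe sets of the types that can match several transcripts (suffix s_at or x_at) made up 35 of the 173 members. The members were chosen by these values: a member had a mean log2 intensity at 24 h that exceeded the mean at 6 h by at least 1.5 in every one of the 4 series. Members that matched no annotated gene are given below by their rank in mean difference over the 4 series. Past this threshold were 175 probe sets, from which those of *PBZ1* and *DXPS*, 1 each, were left out. Of the 173, 137 matched 1 annotated gene (123 distinct genes), 2 matched several genes and 34 matched none in the platform annotation, and 33 of them belonged to 32 genes with a name beyond a locus number. The same threshold in the opposite direction was met by 144 probe sets. The needle-punctured plants were damaged, so the set is called here higher at 24 h without BPH, and not higher in undamaged seedlings.

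The plants were 2-week-old seedlings of the *indica* cultivars Rathu Heenati (RH) and Taichung Native 1 (TN1), grown in small pots under natural conditions. Natural growth (C), whose arrays are titled "widetype", received no treatment. For needle puncturing (N) each plant was pricked 15 times at its base, and for BPH infestation (P) about 100 third-instar nymphs were put on a pot of 10 seedlings inside a net cage. Shoots were taken at 6 and 24 h, each replicate being the 10 seedlings of 1 pot, which gave 12 groups of 3 arrays, written for example R24P for RH at 24 h with BPH. Because the 2 collections differed in hour of the day, in seedling age and, for N and P plants, in time since treatment, these cannot be told apart. The light regime is not given in the sources used here, nor whether C and N pots stood in cages, so cage and insects cannot be told apart either.

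Many plant transcripts cycle with the day. In the circadian clock of plants, morning-expressed MYB factors such as CCA1 repress evening genes including TOC1 (PRR1) and the LUX type factor PCL1. TOC1 in turn represses CCA1. Output genes of the clock, together with light and sugar, set daily courses of photosynthesis, nitrogen uptake, sugar transport and heat shock factor expression.

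Depth is not defined for arrays; the 3 arrays per group limit the precision. Within a group the lowest correlation between 2 arrays over all probe sets was 0.988. The median intensity of an array over all probe sets lay between 35.8 and 39.8, a level used below to mark dim signal. Of 13 probe sets of light-harvesting, Rubisco and chlorophyll synthesis genes, markers of green shoots, 11 had a median over the 36 arrays above that level (11588 for *GOS5* and 15164 for *LHCP*), those of *RBCS1* (10.96) and 1 of 4 of *OsrbcS* (16.9) did not, and no root marker of the list matched a gene in the annotation. Such bulk shoots hold several cell types, and fewer cells of a type and less RNA per cell cannot be told apart. Each replicate was a separate pot, and nothing states that the pots came from separate sowings, so the p-values measure the spread between pots.

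The values that chose the members are a description and carry no test. The mean log2 difference over the 4 series had a median of 2.39 over the 173 members, with 43 members at 3 or more and 46 under 2. The median of the members was 2.53 for R24C/R6C, 2.55 for T24C/T6C, 2.23 for R24N/R6N and 2.16 for T24N/T6N, where the medians over all probe sets were 0.04, 0.03, 0.06 and 0.03. In 139 members (RH) and 144 members (TN1) the needle series had the smaller difference of the pair. Just inside the threshold, by the smallest of the 4 differences, stood the unannotated member of rank 81 at 1.503, LOC4327388 and LOC4330413 at 1.51, LOC4339406 at 1.51 and LOC4334610 at 1.52. Just outside stood LOC4346914 at 1.499, LOC4337529 at 1.498, and LOC4338611, *MTP5* and LOC4347644 at 1.48. At 6 h 38 members in R6C and 39 in T6C had a group mean below the highest array median of 39.8, and none did in R24C or T24C, so that the folds of those members rest on dim 6 h signal.

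The mean log2 intensity of the members split the arrays by collection time in every treatment. It was 6.66 ± 0.13 (SD, n = 3) in R6C and 6.66 ± 0.04 in T6C, and 9.41 ± 0.05 in R24C and 9.52 ± 0.14 in T24C. Under BPH, in arrays the rule did not use, it was 7.16 ± 0.20 in R6P and 7.19 ± 0.20 in T6P, against 9.71 ± 0.08 in R24P and 10.06 ± 0.11 in T24P. No 24 h array of any treatment overlapped a 6 h array. Within R6P, replicate 2 stood at 7.39 and the other two at 7.08 and 7.01, and replicate 2 was the highest array for 120 of the 173 members. Within T6P, replicate 1 stood at 6.96, below 7.28 and 7.32, and was the lowest array for 119 members. The median SD of a member was likewise largest in these 2 groups (0.249 and 0.271 on the log2 scale), compared with 0.0984 in R24N.

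**Figure D1:**
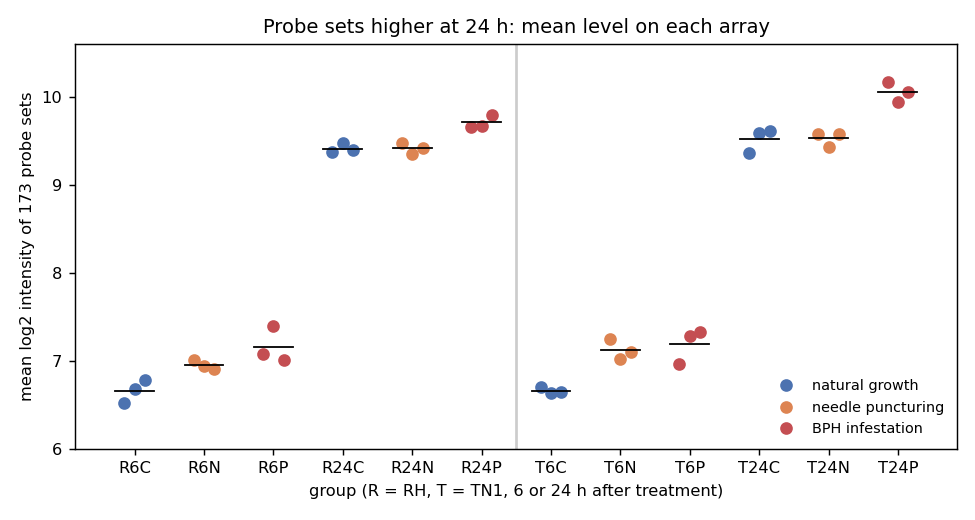
Mean log2 intensity of the 173 members on each of the 36 arrays, by group; each point is 1 array and the black bar the group mean. All 24 h arrays lie above all 6 h arrays, and the points of R6P and T6P are the most spread.

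BPH-infested plants gave the comparison of 24 h with 6 h that was independent of the choice of members. In R24P/R6P 171 of 173 members were called higher (adjusted p under 0.05 and a fold of at least 2 in limma's moderated test over all probe sets) where 1.89% of all probe sets were, and 0 were called lower (1.3% of all). In T24P/T6P 170 were called higher (3.79% of all) and 0 lower (5.72% of all). In both varieties 170 were called. The median log2 difference of the members was 2.38 (range 0.49 to 6.66) in RH and 2.81 (0.67 to 6.92) in TN1, with medians over all probe sets of -0.03 and 0.07. All 3 arrays at 24 h lay above all 3 at 6 h for 171 members in RH (15.0% of all probe sets) and for 170 in TN1 (23.3%).

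The exceptions were 3 loci without a gene name. LOC4326901, annotated to chlorophyll biosynthesis in the study's Gene Ontology table, had intensities of 174, 293 and 208 in T6P and 244, 429 and 406 in T24P. Its arrays overlapped between the 2 times in TN1. The log2 difference was 0.67 ± 0.18 (SE; adjusted p = 0.0041), under the 2-fold minimum, whereas in RH the difference was 1.75 ± 0.18. LOC4344149 had 0.49 ± 0.19 in RH (adjusted p = 0.071) and 0.69 ± 0.19 in TN1. The third, LOC4335556, read 75.1, 77.1 and 64.2 in R6C and already 279, 681 and 218 in R6P, followed by 727, 513 and 569 in R24P. For it the 24 h to 6 h difference was 0.79 ± 0.34 in RH and 0.80 ± 0.34 in TN1, and neither passed (adjusted p = 0.097 and 0.061).

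*CCA1*, the morning MYB factor of the clock, had the largest difference of all members. Its intensities were 79.3, 103 and 75.7 in R6C and 5146, 5335 and 4781 in R24C, and 77.5, 63.2 and 80.5 in T6C and 5214, 5911 and 5663 in T24C. Under BPH they were 57.4, 55.6 and 36.8 in R6P and 5205, 4466 and 5253 in R24P, and 77.1, 73.3 and 49.1 in T6P and 8594, 7059 and 8165 in T24P. The 6 h arrays and the 24 h arrays were thus far apart in both varieties, with and without BPH. The log2 difference under BPH was 6.66 ± 0.19 in RH (adjusted p = 1.1e-21) and 6.92 ± 0.19 in TN1 (adjusted p = 1.8e-22). All 3 T24P arrays were above all 3 T24C arrays, by 0.50 ± 0.19, under the 2-fold minimum. A second *CCA1* probe set was dim on all arrays (mean 11.8) and was no member.

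Other clock genes, taken from a list of 7, ran the opposite way or changed little. *OsPCL1*, the evening LUX type factor, read 2382, 2423 and 2740.3 in R6P and 24.12, 29.7 and 27.9 in R24P, and 2632, 2269 and 2793 in T6P and 19.1, 23.1 and 20.5 in T24P. It was far dimmer at 24 h in both varieties, with a log2 difference of -6.53 in RH and -6.94 in TN1, both called. *OsPRR1*, the TOC1 type pseudo-response regulator, had -3.23 and -3.06. *GI*, a clock-associated protein of photoperiodic flowering, had -1.74 and -1.35, where the natural growth series had -2.43 in RH and -2.41 in TN1. *OsPRR95* had -1.38 in RH, called, and -0.97 in TN1, not called for want of 2-fold. *OsPRR73* (0.46 and 0.73) and *DTH7* (0.92 and 0.62) were not called. In all, 1 of the 7 was called higher in both varieties (1.89% of all probe sets in RH and 3.79% in TN1). Called lower were 4 in RH (1.3% of all) and 3 in TN1 (5.72% of all).

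**Figure D2:**
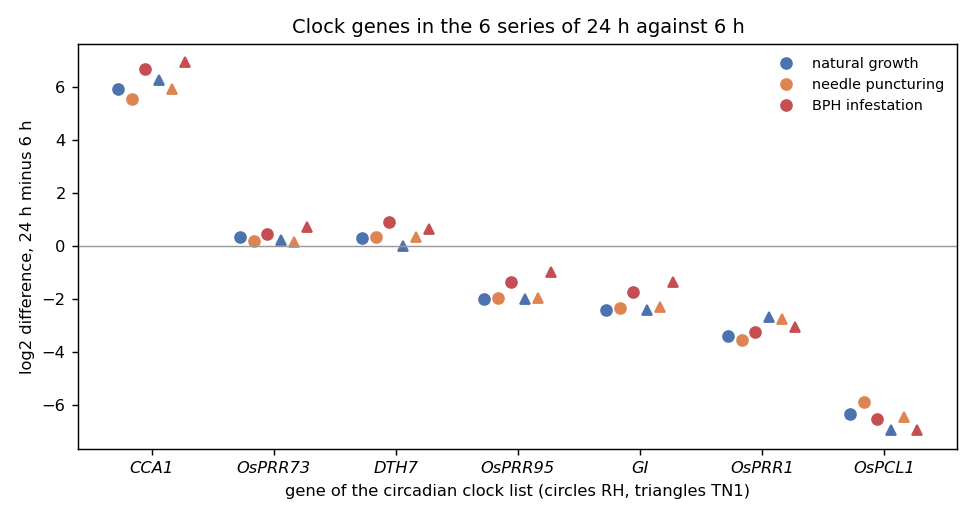
Log2 difference of 24 h from 6 h (y axis) for the 7 clock genes (x axis) in the 6 series; circles are RH and triangles TN1, colours are treatments, and each point is a difference of 2 group means. *CCA1* lies far above 0 and *OsPCL1* far below 0 in every series, *OsPRR73* and *DTH7* lie between 0 and 1, and the BPH points of *GI* and *OsPRR95* are closer to 0 than their natural growth points.

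Among the other transcription factors, *HOX22*, a homeodomain-leucine zipper factor, read 97.8, 128 and 104 in R6P and 1316, 1045 and 1359.8 in R24P, and 82.3, 115 and 71.6 in T6P and 2946, 1271 and 1864 in T24P. Its 24 h arrays were all above its 6 h arrays, by 3.50 ± 0.19 in RH and 4.44 ± 0.19 in TN1. *WRKY76* and *WRKY62*, neighbours in the reference annotation and members of a family of stress-responsive factors, had 1.90 ± 0.21 and 2.13 ± 0.21 in RH and 2.14 ± 0.21 and 2.62 ± 0.21 in TN1. These 4 factors, *CCA1* included, were called higher in both varieties.

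The 6 heat shock members were all called higher at 24 h under BPH in both varieties, with differences of 1.08 to 3.44 in RH and 1.28 to 3.75 in TN1. *HSFA2D*, by name a class A heat shock factor, read 83.6, 159 and 60.2 in R6P and 915, 1007 and 1102 in R24P. Its difference was 3.44 ± 0.22 in RH and 3.14 ± 0.22 in TN1, but a second and brighter probe set of the same annotated gene (mean 1846) differed by -0.08 to 0.26 between the times, so the 2 probe sets disagreed. *HSFC2A*, a class C factor, read 63.9, 67.5 and 42.7 in R6P and 229, 323 and 354 in R24P, and 62.4, 50.4 and 57.9 in T6P and 926, 588 and 712 in T24P. The T24P arrays of *HSFC2A* stood apart from the R24P arrays. *HSFB2A*, of class B, differed by 1.58 ± 0.17 in RH and 1.80 ± 0.17 in TN1. A second *HSFB2A* probe set (mean intensity 252), no member, had 1.43 and 1.47. Small heat shock proteins hold unfolding proteins in solution. *HSP18.6* had 2.54 ± 0.25 and 3.75 ± 0.25, but 2 other probe sets of the annotated gene, no members, had 1.78 and 2.87 (mean intensity 82.3) and 0.19 and 0.91 (mean 11.4). *HSP16.0* had 1.76 ± 0.25 and 1.28 ± 0.25. *HSP24.1* read 675, 1240.3 and 366 in R6P and 1582, 1355 and 1342 in R24P, with a difference of 1.08 ± 0.30 (adjusted p = 0.0083). That call rested on R6P replicate 3, the lowest of its group, without which the difference was 0.64 (adjusted p = 0.14). Of the 42 named genes of the heat shock list, 8 were called higher and 1 lower in R24P/R6P (median 0.27), and 11 and 3 in T24P/T6P (median 0.33). The shares of all probe sets were 1.89% higher and 1.3% lower in R24P/R6P, and 3.79% and 5.72% in T24P/T6P.

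Transporter members were, by their names, carriers of sugar, ammonium, magnesium and potassium. *SWEET2B*, a SWEET sugar transporter gene represented by 2 member probe sets, read 46.8, 61.2 and 40.7 in R6P and 974, 1141 and 1265 in R24P on the first of them. In TN1 it read 49, 88.2 and 70.3 in T6P and 1449.6, 1646 and 1537 in T24P, and the difference was 4.52 ± 0.18 in RH and 4.52 ± 0.18 in TN1. *AMT1-1*, a high-affinity ammonium transporter, read 138, 182 and 138 in R6P and 2063, 1979 and 2428 in R24P, and 161, 117 and 166 in T6P and 3071, 3158 and 3500.3 in T24P. No array of one time overlapped the other, and the difference was 3.83 ± 0.16 in RH and 4.47 ± 0.16 in TN1. *MRS2-A*, of the MRS2 magnesium transporters, had 2.69 ± 0.09 and 2.80 ± 0.09, and *HAK27*, of the HAK potassium transporters, 2.28 ± 0.13 and 2.81 ± 0.13. *SWEET15* had the smallest differences of the group, 1.55 ± 0.31 in RH and 1.52 ± 0.31 in TN1. A transporter list of 94 named genes held 2 member genes, so it does not cover all the transporter members described here. Of the 94, 10 were called higher and 1 lower in R24P/R6P (1.89% and 1.3% of all probe sets). In T24P/T6P 22 were higher and 6 lower (3.79% and 5.72% of all).

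**Figure D3:**
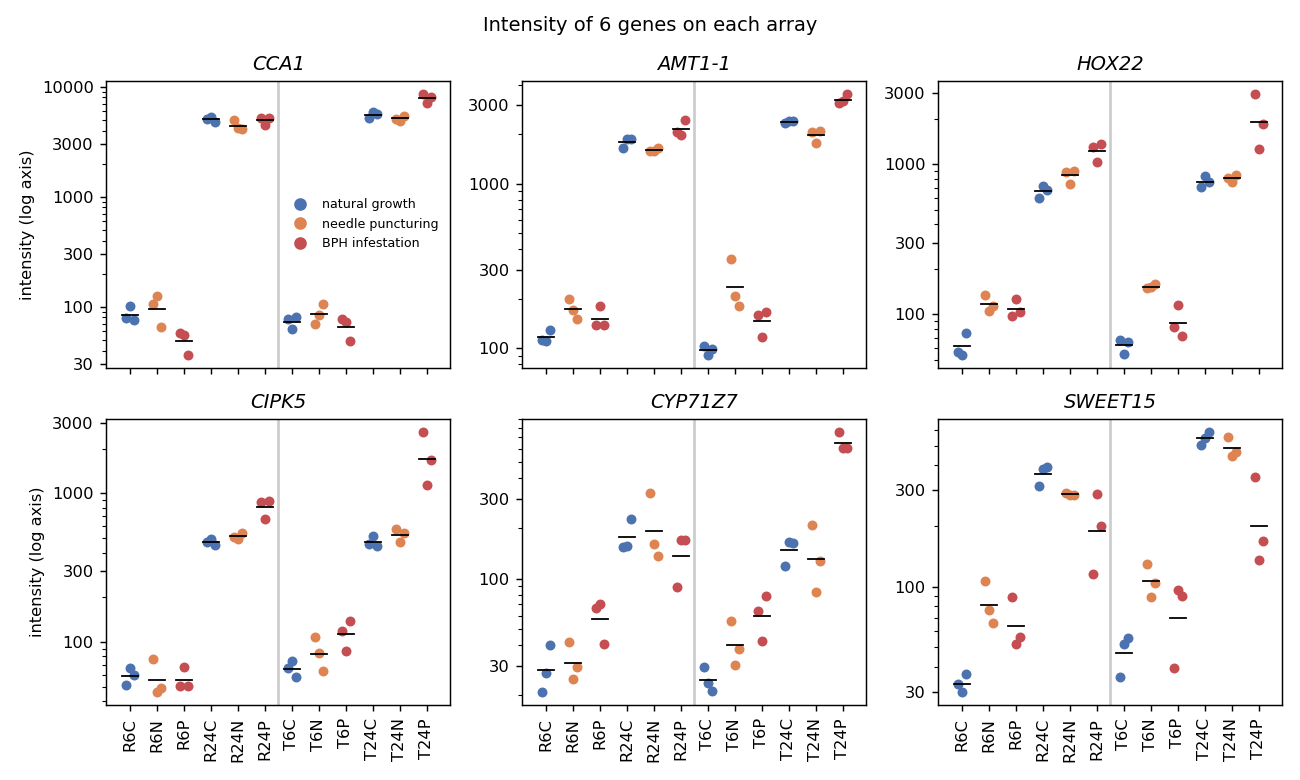
Intensity on each array (log axis) of 6 members, *CCA1*, *AMT1-1*, *HOX22*, *CIPK5*, *CYP71Z7* and *SWEET15*, by group; points are arrays and the black bar is the group mean. The 24 h groups lie above the 6 h groups, *CYP71Z7* and *CIPK5* are highest in T24P, and *SWEET15* in T24P lies below T24C.

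Kinase, receptor and plastid members followed the same direction. *CIPK5*, a kinase of the family that acts with calcineurin B-like calcium sensors, read 50.2, 67.7 and 50.2 in R6P and 875, 674 and 884 in R24P, and 118, 87.5 and 138 in T6P and 2593, 1139.6 and 1675 in T24P. It differed by 3.86 ± 0.22 in RH and 3.92 ± 0.22 in TN1. *CIPK1* of the same family had 1.80 ± 0.14 and 2.27 ± 0.14, and *CEBIP*, the chitin receptor protein, 1.47 ± 0.15 and 1.73 ± 0.15. For *ALDP*, the chloroplast fructose-bisphosphate aldolase of the Calvin cycle, the readings were 60.9, 98.8 and 77.6 in R6P and 1070.5, 771 and 861 in R24P. Its difference of 3.52 ± 0.21 was on a probe set much dimmer than 2 others of the annotated gene (means 11683 and 8927), which differed by 0.42 to 0.98 over the 6 series. *PSAG*, a subunit of photosystem I, had 2.27 ± 0.12 and 2.38 ± 0.12, but a second *PSAG* probe set (mean 67.1), no member, had -0.09 and 0.46. Second probe sets of *AMT1-1* and *SAT1*, dim at means of 26.3 and 14.1, had 0.24 and 0.71, and -0.43 and -0.01. *EGY3*, named for a family of plastid metalloproteases, had 3.04 ± 0.26 and 3.57 ± 0.26, and *CRSH1*, which makes the plastid alarmone ppGpp, 1.75 ± 0.09 and 2.28 ± 0.09.

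Metabolic and cell wall members included a ferric reductase gene listed as *0sFRO1*, which differed by 3.32 ± 0.10 in RH and 3.08 ± 0.10 in TN1. *ME6*, an NADP-malic enzyme, had 1.54 ± 0.10 and 1.86 ± 0.10. *SAT1*, a serine acetyltransferase of cysteine synthesis, had 2.32 ± 0.22 and 2.95 ± 0.22, and *PDX12*, of the PDX1 family of vitamin B6 synthesis, 1.54 ± 0.22 and 2.11 ± 0.22. *CYP71Z7*, a cytochrome P450 of the phytocassane (diterpenoid phytoalexin) pathway, was 2.38-fold higher at 24 h in RH (95% interval of the log2 difference 0.57 to 1.93) and differed by 3.45 ± 0.33 on the log2 scale in TN1. The RH call was lost without R6P replicate 3 (1.00, adjusted p = 0.054). Of the 4 wall and glycosidase members, *PMEI8*, a pectin methylesterase inhibitor, read 442, 454 and 463 in R6P and 3345, 3255 and 3222 in R24P, and 373, 441 and 430.2 in T6P and 1609, 1341 and 1933 in T24P. The R24P arrays of *PMEI8* lay above the T24P arrays. *BGLU22* and *BGLU31*, of the family of glycoside hydrolases that includes the beta-glucosidases, and *EXPB2*, a wall-loosening beta-expansin, had 1.92 to 2.34 in RH and 2.01 to 3.25 in TN1. *U2AF35A*, of the U2AF splicing factor, had 2.23 ± 0.14 and 2.37 ± 0.14.

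Several of the largest differences belonged to loci without a gene name. LOC4344635 differed by 6.40 ± 0.32 in RH and 4.80 ± 0.32 in TN1. LOC4334321 differed by 5.46 ± 0.31 in RH and 4.65 ± 0.31 in TN1, the unannotated member of rank 3 by 4.83 ± 0.18 and 5.09 ± 0.18, and LOC4348272 by 4.31 ± 0.16 and 4.54 ± 0.16. LOC4328240 (3.80 ± 0.25 and 4.25 ± 0.25), LOC4327573 (3.42 ± 0.29 and 4.81 ± 0.29) and LOC4328929 (3.31 ± 0.29 and 4.46 ± 0.29) were also among them. LOC4326757, with 3 member probe sets, had arrays that were far apart within a group. On 1 of them it read 165, 1495 and 176 in R6P and 3600.0, 2859 and 2733 in R24P, and 272, 2125 and 3620.2 in T6P and 11789.9, 11349.6 and 11952 in T24P. All its 24 h arrays were still above its 6 h arrays, with 3.11 ± 0.62 in RH and 3.19 ± 0.62 in TN1. At the other end stood LOC4344421, with 1.28 ± 0.12 and 1.09 ± 0.12, and LOC4351372, with 1.97 ± 0.18 and 1.13 ± 0.18. In the 8 genes with more than 1 member probe set, 22 probe sets in all, the differences of 1 gene under BPH spanned up to 1.38 to 2.80 in RH (LOC4326913, 2 probe sets). Because such probe sets measure the same gene, they are not independent members.

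The difference between 24 h and 6 h under BPH was not the same in the 2 varieties for part of the members. The interaction of variety and time passed (adjusted p under 0.05) for 44 of the 173, or 25.4%, against 14.3% of all probe sets. The time difference was larger in TN1 for 37 of them (21.4% of members), where RH minus TN1 passed below 0 in 5.65% of all probe sets. It was larger in RH for 7 (4.05% of members), where RH minus TN1 passed above 0 in 8.6% of all. The count of 44 fell to 28 without T24P replicate 1 and to 2 with the methods' own test, on the compared groups alone and with adjusted p-values. *CYP71Z7* was the named gene with the largest interaction. Its readings of 89.2, 169 and 170.1 in R24P and 756, 606 and 605 in T24P did not overlap, while 67, 69.9 and 40.7 in R6P and 63.7, 42.1 and 79.1 in T6P did, and the interaction (RH minus TN1) was -2.20 ± 0.47 (adjusted p = 0.0018). LOC4352488, annotated to biotic stimulus response in the study's Gene Ontology table, read 128, 165 and 106 in R6P and 315, 519.8 and 437 in R24P, and 107, 44.5 and 88.1 in T6P and 1628, 1601 and 1521 in T24P. Its interaction was -2.74 ± 0.58 (adjusted p = 0.0016).

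*HSFC2A* had an interaction of -1.30 ± 0.26 (adjusted p = 0.00097), *HSP18.6* of -1.21 ± 0.35 (adjusted p = 0.02), *HOX22* of -0.95 ± 0.27 (adjusted p = 0.018) and *BGLU22* of -0.91 ± 0.26 (adjusted p = 0.018). The last 3 of these interactions no longer passed once T24P replicate 1 was left out (-0.81, -0.63 and -0.84, adjusted p = 0.092, 0.082 and 0.050). That array had the highest mean of the members in its group, but not the highest median over all probe sets. All 3 interactions were also lost without R6P replicate 2. Larger in RH were *PMEI8*, at 0.89 ± 0.17 (adjusted p = 0.00073), LOC4326901, at 1.08 ± 0.26, and LOC4344635, annotated to magnesium ion binding and lyase activity. LOC4344635 read 17.8, 38.4 and 31.3 in R6P and 2569.6, 2095 and 2406 in R24P, against 6.99, 10.4 and 10.5 in T6P and 264, 259.6 and 239 in T24P. It was brighter in RH at each time, its 6 h signal was dim in both varieties, and its interaction of 1.61 ± 0.45 fell to 1.28 (adjusted p = 0.055) without R6P replicate 1. Probe sets without a gene name, chosen after their values were seen, held some of the largest interactions. The member of rank 18, for example, read 613, 552 and 611 in R24P and 2833, 2525 and 2773 in T24P and had -2.54 ± 0.27 (adjusted p = 2.8e-07).

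**Figure D4:**
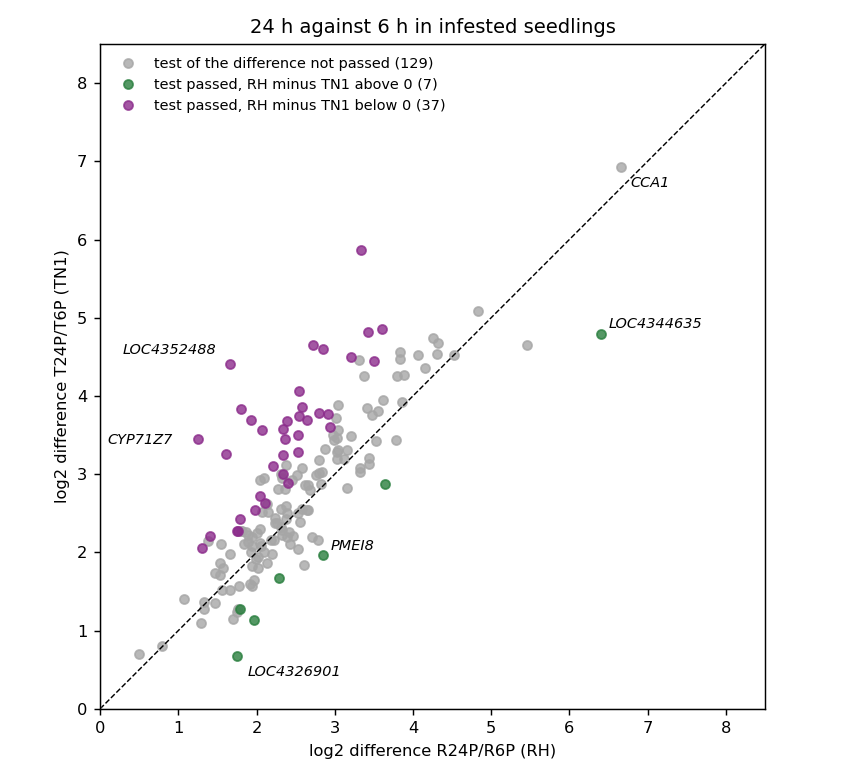
Log2 difference of 24 h from 6 h under BPH for each of the 173 members, RH on the x axis and TN1 on the y axis; the dashed line is equality. The interaction passed for 7 members below the line (larger in RH) and 37 above it (larger in TN1), and 129 did not pass.

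In plants with BPH the varieties also differed in level. In R24P/T24P 6 members (3.47%) were called higher in RH (2.83% of all probe sets) and 23 (13.3%) lower (2.98% of all). The share higher in RH was thus near that of all probe sets. In R6P/T6P 12 (6.94%) were higher (1.38% of all) and 8 (4.62%) lower (1.73% of all). With the methods' own test and adjusted p-values the 23 fell to 9, the 12 to 3 and the 8 to 1. At 24 h *CIPK5* (-1.08 ± 0.22), *HSFC2A* (-1.29 ± 0.18), *BGLU22* (-1.32 ± 0.18) and *CYP71Z7* (-2.25 ± 0.33) were lower in RH, and *PMEI8* (1.02 ± 0.12) and LOC4344635 (3.21 ± 0.32) were higher. *CIPK5* lost its call without T24P replicate 1 (-0.78), as did *PMEI8* without T24P replicate 2 (0.89), both for want of 2-fold. Among members higher in RH were also 2 probe sets without a gene name, chosen after their values were seen. The member of rank 82 read 5363, 4642 and 5423 in R24P and 682, 645 and 578 in T24P, which did not overlap (3.02 ± 0.27). The member of rank 24 read 8183, 6495 and 7906 in R24P and 1069, 1865 and 971 in T24P (2.59 ± 0.30). Both were called higher in RH in natural growth at 6 and 24 h too, in arrays the rule used, where 11 members differed between the varieties in R6C/T6C (2.91% of all probe sets) and 16 in R24C/T24C (2.75%).

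The response to BPH was taken against untreated pots of the same variety, collected at the same time. The natural growth arrays had helped to choose the members, low at 6 h and high at 24 h, so the following counts and differences are a description, and how far the choice moved them was not tested. At 24 h 15 members (8.67%) were called higher in R24P/R24C (0.956% of all probe sets) and 0 lower (0.254%). In T24P/T24C 32 (18.5%) were called higher (3.53% of all) and 3 (1.73%) lower, below the 3.13% of all. In both varieties 9 were called higher, in RH alone 6 and in TN1 alone 23. The median difference of the members was 0.23 in RH and 0.54 in TN1, against -0.03 over all probe sets in each. With the methods' own test and adjusted p-values the 15 fell to 3, the 32 to 12 and the 3 to 0, and without T24P replicate 1 the 3 fell to 1.

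*EGY3*, called at both times in both varieties, read 263, 302 and 391 in R24C and 1364, 718 and 958 in R24P, and 183, 265 and 234 in T24C and 1815, 565 and 869.5 in T24P. Its infested arrays were all above the natural growth arrays, by 1.64 ± 0.26 in RH and 2.099 ± 0.26 in TN1. *HSP18.6* read 136, 135 and 158 in T24C and 1005, 322 and 594 in T24P, higher by 2.01 ± 0.25, and in RH the difference was 1.02 ± 0.25, just past 2-fold (0.89 without R24P replicate 1). *WRKY62* had 1.20 ± 0.21 in RH and 1.14 ± 0.21 in TN1 (0.97 without T24P replicate 1). LOC4344635 had 1.77 ± 0.32 and 1.03 ± 0.32 (0.47 without T24C replicate 1). LOC4328929 was also called at both times in both varieties, with 1.71 ± 0.29 and 1.92 ± 0.29 at 24 h. LOC4326784 (-0.45 ± 0.13 and -0.52 ± 0.13), LOC4351372 (-0.42 ± 0.18 and -0.77 ± 0.18) and LOC4349224 (-0.38 ± 0.16 and -0.83 ± 0.16) were among the lowest, without a call. The unannotated member of rank 81, assigned to wounding response and serine endopeptidase inhibition in that Gene Ontology table, had 1.79 ± 0.35 and 2.58 ± 0.35. These arrays of T24P spread widely, with replicate 1 the highest for 102 members and replicate 2 the lowest for 102.

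Called in TN1 alone were *CYP71Z7*, which read 119, 166 and 163 in T24C and was higher by 2.14 ± 0.33 with BPH (-0.37 ± 0.33 in RH), and LOC4352488, with 2.75 ± 0.41 and -0.11 ± 0.41. So were *CIPK5* (1.86 ± 0.22 in TN1, 0.78 ± 0.22 in RH), *SAT1* (1.51 ± 0.22 and 0.55 ± 0.22) and *HOX22* (1.32 ± 0.19 and 0.89 ± 0.19). For *HOX22* the RH value was near 2-fold, and the difference of the responses did not pass. The 3 members called lower in T24P/T24C were *SWEET15*, LOC4326901 and LOC4344149. *SWEET15* read 506, 544 and 585 in T24C and 350.1, 135 and 169 in T24P (-1.45 ± 0.31), and in RH 314, 382 and 392 in R24C and 115, 288 and 199.6 in R24P (-0.94 ± 0.31, not called). The LOC4326901 and LOC4344149 differences were -1.23 ± 0.18 and -1.10 ± 0.19, and each fell under 2-fold without T24P replicate 1 (-0.97 and -0.88). The response differed between the varieties at 24 h for 31 members (9.55% of all probe sets). RH minus TN1 was above 0 for 6 (3.47% of members, 5.39% of all) and below 0 for 25 (14.5% of members, 4.16% of all). Values above 0 include members lower with BPH in TN1, such as LOC4344149. That count was 17 without R24P replicate 2, 18 without T24P replicate 1, 19 without R24C replicate 2 and 50 without T24P replicate 2, and 2 with the methods' own test and adjusted p-values. Among the 31 were *CYP71Z7* (-2.51 ± 0.47, RH minus TN1), LOC4352488 (-2.86 ± 0.58) and LOC4330542 (1.34 ± 0.31), a methyltransferase in the study's Gene Ontology table.

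**Figure D5:**
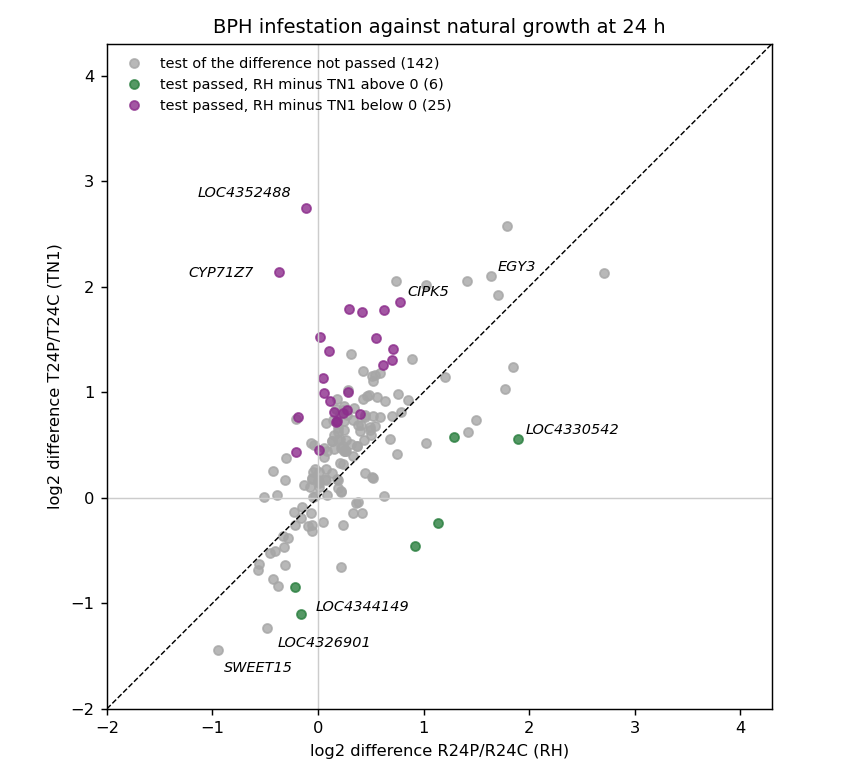
Log2 difference of BPH infestation from natural growth at 24 h for each of the 173 members, RH on the x axis and TN1 on the y axis; the dashed line is equality. The difference between the varieties passed for 6 members with the larger value in RH and 25 with the larger value in TN1, and 142 did not pass.

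At 6 h 29 members were called higher in R6P/R6C (0.316% of all probe sets) and 27 in T6P/T6C (0.309%), 15 of them in both, and 0 were called lower in either (0.0997% and 0.0192%). The 27 fell to 17 without T6C replicate 2 or without T6P replicate 3, and with the methods' own test and adjusted p-values both counts were 0. *CCA1* was lower with BPH than in natural growth at 6 h in RH, by -0.80 ± 0.19 (SE), under the 2-fold minimum. *WRKY62* read 24.4, 31 and 23 in R6C and 68.4, 87.4 and 83.1 in R6P (1.61 ± 0.21), and *WRKY76* read 70.2, 109 and 123 and 239, 270.5 and 241 (1.35 ± 0.21), both called in RH and, at 0.85 ± 0.21 and 0.76 ± 0.21, not in TN1. *PDX12* read 131, 111 and 107 in T6C and 288, 341 and 555 in T6P (1.71 ± 0.22) and was called in TN1 and, at 0.89 ± 0.22, not in RH. Whether the responses of these 3 genes differed between the varieties did not pass the test. It passed at 6 h for 3 members (0.11% of all probe sets), LOC4330542 and 2 probe sets of 1 unnamed transcript, the latter chosen after their values were seen. LOC4330542 read 65, 114 and 116 in R6C and 570.2, 706 and 1003 in R6P, and 185, 181 and 188 in T6C and 351, 298 and 383 in T6P. It was higher with BPH by 2.96 ± 0.22 in RH and 0.89 ± 0.22 in TN1, a difference of 2.07 ± 0.31. LOC4330542 was also called higher with needle puncturing at 6 h, by 1.86 ± 0.22 in R6N/R6C and 1.30 ± 0.22 in T6N/T6C. The first of the unnamed probe sets, of rank 49, read 56.3, 79.6 and 96.5 in R6C and 379.8, 564 and 668 in R6P, and 68, 53.8 and 66 in T6C and 80.6, 90.1 and 116 in T6P, a difference of 2.19 ± 0.32 between the responses.

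Needle puncturing was part of the rule, and its comparisons share the natural growth arrays with those of BPH. In R6N/R6C 7 members were called, all higher (0.177% of all probe sets in either direction), and in T6N/T6C 23, all higher (0.418%). Of the members called higher with BPH at 6 h, 7 of 29 in RH and 11 of 27 in TN1 were also called higher with needle puncturing. At 24 h 0 members were called by limma in R24N/R24C (0.021%), where 8 had an unadjusted p under 0.05, and 1, the unannotated member of rank 22, in T24N/T24C (0.0542%). Without T6N replicate 1 the 23 fell to 13, and with the methods' own test and adjusted p-values the 7, the 23 and the 1 were all 0.

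Of 122 member genes found in the RefSeq annotation, 4 pairs were direct neighbours: *WRKY76* and *WRKY62*, LOC4344149 and LOC4344150, LOC4337261 and LOC4337262, and LOC4350079 and LOC4350081. Such pairs were not counted for other genes on the array, so the 4 are a description, and clustering of the members was not tested. With BPH at 6 h LOC4344149 and LOC4344150 were called in RH and not in TN1 (from 42.9, 68.7 and 60.5 in R6C to 123, 148 and 132 in R6P for the first, and 1.13 ± 0.13 for the second, against 0.47 ± 0.19 and 0.34 ± 0.13 in TN1). LOC4337261 and LOC4337262 were called in TN1 (1.22 ± 0.17 and 1.01 ± 0.12) and missed only the 2-fold minimum in RH (0.91 ± 0.17 and 0.71 ± 0.12). The difference between the varieties did not pass for any of these 4 genes. The gene lists were matched by gene name, so each covers only the named genes of its family. A gene name was given for 3193 of the 57194 probe sets, and 33 of these were members. Members were found for 2 of 52 genes of a starch and sugar list and 2 of 6 WRKY genes. They were found for 1 of 29 cytochrome P450 genes, 1 of 17 nitrogen genes and 1 of 8 photosynthesis genes. Of all probe sets, 1.89% were called higher and 1.3% lower in R24P/R6P, and 3.79% and 5.72% in T24P/T6P. In R24P/R6P 4 of the 52 starch and sugar genes were called higher and 0 lower (median 0.11), and in T24P/T6P 8 were higher and 3 lower (median 0.24). Of the 29 cytochrome P450 genes 1 was called higher in RH and 10 in TN1 (medians 0.09 and 0.36), and of the 8 photosynthesis genes 2 and 1 (medians 0.25 and 0.10), none of either list being called lower. Of the 17 nitrogen genes 2 were called higher and 1 lower in RH, and 3 and 2 in TN1. Lists of 35 jasmonate, 12 pathogenesis-related and chitinase, 17 terpenoid, 16 phenylpropanoid, 10 MYB, 8 NAC, 30 bZIP and bHLH and 12 AP2/ERF genes held no member, but *PBZ1* and *DXPS*, each with 1 probe set past the threshold that was left out, belong to the pathogenesis-related and terpenoid lists.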

How the data were processed

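RNA of rice shoots was measured on 36 Affymetrix Rice Genome arrays, 3 per group. The authors deposited a table of linear intensity values; the submitters' processing notes name RMA and affy without versions. The values were taken to log2 as deposited, with no further normalization or filter. A fit of 12 groups was made over all 57194 probe sets in limma 3.58.1 (R 4.3.3), with p-values adjusted by Benjamini-Hochberg over all of them. Calls needed an adjusted p under 0.05 and a fold of at least 2, interactions the p alone. The fit had 24 residual and 6.16 prior degrees of freedom. It was checked on simulated data.

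Probe sets were named from the platform annotation and RefSeq symbols (assembly ASM3414082v1, names and neighbours only). Members and gene lists were chosen with earlier results of these data known. Named here are members with a gene name, the 10 largest mean differences, the 5 on each side of the threshold, and the 5 largest and smallest values of 1-gene members per comparison. A few others, and the variety differences in BPH response, were chosen after seeing the data. In a check of 198 pairs with the same replicate number, deviations from group means had a mean correlation of -0.006. Single pairs ranged from -0.48 to 0.44, so the mean cannot exclude pairing by number within some groups. Alternatives were ANOVA with adjusted and with unadjusted p-values, other normalizations, filters, weights and thresholds, and leaving out each array. Sequences were not used here.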

Additional observations from a re-analysis of the deposited data

Results flagged for a closer look

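The differences below were flagged because a test of the difference between RH and TN1 passed (adjusted p under 0.05 in limma). All are log2 values, RH minus TN1, and ranks are those of the mean difference over the 4 series.

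For the difference of 24 h from 6 h under BPH, 44 members passed. Larger in RH were LOC4344635 (1.61), LOC4326901 (1.08), *PMEI8* (0.89), LOC4351372 (0.84) and LOC4337262 (0.52). Larger in TN1 were LOC4352488 (-2.74), the unannotated member of rank 18 (-2.54), *CYP71Z7* (-2.20), and the unannotated members of rank 49 (-2.03), 53 (-1.77), 25 (-1.93) and 81 (-1.75). Smaller differences of the same sign were those of LOC4327292 (-1.51), LOC4327573 (-1.39), *HSFC2A* (-1.30), LOC4349216 (-1.27), the unannotated member of rank 32 (-1.25), *HSP18.6* (-1.21), *HOX22* (-0.95), *BGLU22* (-0.91), LOC4330542 (-0.90) and LOC4344150 (-0.76).

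For the response to BPH at 6 h, 3 members passed, all with the larger value in RH: the unannotated members of rank 49 (2.19) and 53 (2.13), and LOC4330542 (2.07). The members of rank 49 and 53 are probe sets of 1 transcript and count as 1 observation. All 3 members were also called higher with needle puncturing in RH at 6 h.

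For the response to BPH at 24 h, 31 members passed. The unannotated members of rank 24 (1.38) and 47 (1.38) and LOC4330542 (1.34) had the larger value in RH. The members of rank 24 and 47 are probe sets of 1 transcript and count as 1 observation. LOC4344149 (0.94) was called lower in TN1. LOC4352488 (-2.86), *CYP71Z7* (-2.51), the member of rank 18 (-1.49), *CIPK5* (-1.08), *SAT1* (-0.97) and *HSFC2A* (-0.95) had the larger value in TN1. The natural growth arrays in these responses had helped to choose the members.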

How the results depend on the processing

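With the one-way ANOVA on the compared groups and adjusted p-values, an adjustment the paper does not state, 152 members were called higher in R24P/R6P and 156 in T24P/T6P. It gave 12 in T24P/T24C (0 lower), 3 in R24P/R24C and, at 6 h, 0 in R6P/R6C and 0 in T6P/T6C. The same test gave 9 lower in R24P/T24P, 3 higher and 1 lower in R6P/T6P, 0 in R6N/R6C, T6N/T6C and T24N/T24C, 4 in R6C/T6C, 8 in R24C/T24C, 2 for the interaction of variety and time, and 0 and 2 for the variety difference in BPH response at 6 and 24 h. With unadjusted p-values of that test the last 2 counts were 17 and 69, and T24N/T24C had 2. With only the compared groups in the fit, T24N/T24C had 0, the time interaction 16 and the 24 h response difference 12. Quantile normalization gave 1 lower in R24P/R24C and 5 for the 6 h response difference. The filter on mean log2 intensity gave 2 in T24N/T24C, and array weights gave 2 there and 54 for the 24 h response difference. An adjusted p under 0.01 left 0, 21 and 12 for T24N/T24C, the time interaction and the 24 h response difference. A threshold of 2 in place of 1.5 gave 88 members.

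With the replicate number as a block the time interaction had 42 and the 24 h response difference 32; the block changed no other call of the named members. Leaving out 1 array at a time gave 17 to 35 calls in T6P/T6C (lowest without T6C replicate 2), 13 to 23 in T6N/T6C (without T6N replicate 1), 7 to 13 in R6C/T6C (without R6C replicate 1), 28 to 57 for the time interaction (without T24P replicates 1 and 2), 17 to 50 for the 24 h response difference (without R24P replicate 2 and T24P replicate 2), 1 to 4 lower in T24P/T24C (without T24P replicate 1), 0 to 2 in T24N/T24C and 0 to 1 lower in R24P/R24C. In R24P/R6P 168 to 172 and in T24P/T6P 165 to 171 were called. Of 305 calls of named members, 70 were lost without at least 1 array, 162 with the adjusted ANOVA, 16 with its unadjusted p-values and 0 with the block. In any alternative run 0 changed sign. The causes were not tested. With 3 arrays per group and 6 h signal near the array median for many members, folds of dim members are imprecise.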
